A study of Mus musculus with 9 samples.

Results

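The mitosis genes described here are a given list of 30 mouse genes that act in or mark dividing cells, from the cyclins and Cdk1 to spindle kinases, kinetochore proteins and cytokinesis factors. For each gene, 1 probe set was taken, the one with the highest mean over the 9 arrays among probe sets paired with a single gene. This gave 29 of the 30 genes, out of 18193 genes in all, and Ccnb1 is not analysed here. The arrays measured total RNA of colonic mucosa from male C57BL/6 mice killed at 6 weeks of age, with the mucosa lifted off by injecting saline under it. There were 3 arrays each of GasKO mice (genotype Gas-/-), hGAS mice (genotype hGas Transgenic) and WT mice. The labels do not give the targeted exons of the gastrin gene, the promoter or cells that drive the transgene, its founder line, or whether RNA of several animals was pooled. Nothing in the labels says that the 3 arrays of a group came from separate animals, so the p-values below measure only the spread between these samples.

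Cells enter mitosis when Cdk1, bound to a cyclin and switched on by the phosphatase Cdc25c, phosphorylates its targets. Polo-like and Aurora kinases then build the spindle, the checkpoint kinases hold anaphase until every kinetochore is attached, and Cdc20 with the anaphase promoting complex releases the sister chromatids. Most of these genes are transcribed in a wave in G2 and M phase, and in the colon the dividing cells lie in the lower part of the crypt. In the RNA of a whole tissue, fewer cells of a type and less RNA per cell cannot be told apart.

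The promoters of these genes are shown first, because the genes moved together from array to array. The windows ran from 250 bases before to 50 bases after the start of transcription, 300 bases in all, and came from RefSeq on mouse build GRCm38.p6. Of the 30 genes, 25 were found in that table, including Ccnb1. The cell cycle homology region (CHR, searched as TTTGAA or TTTAAA on either strand) was in the windows of 22 of 25 genes (88%), against 30.6% of the 27025 genes in the table. The letters CCAAT on either strand, the core of the motif bound by the factor NF-Y, were also in 22 of 25 (88%), against 41.1% of all genes. Both were present in 20 of 25 (80%), against 12.2% of all genes. In 15 of the 25 (60%) there were 2 or more CCAAT matches, against 13.3% of all genes. Within 50 bases of the start, 19 of 25 (76%) had a CHR match, against 9.54% of all genes; this narrower count was chosen after the positions had been seen. The letters TATAAA on the given strand were in 0 of 25 windows, against 9.77% of all genes, and the E2F motif (TTTCGCGC or TTTGGCGC on either strand) was in 1 of 25, that of Cdk1, against 0.929%. The windows of the mitosis genes had a median GC content of 59.2%, against 52.7% for all windows in the table. Bub1, Nek2 and Nusap1 had no CHR match, and Anln, Birc5 and Nusap1 had no CCAAT match. A match is a description of the letters and not of a bound site. The windows of 4 genes with the clearest differences between genotypes and of Cdk1, which showed almost none, are printed 5′ to 3′ along the strand of the gene, with CHR matches (TTTGAA, on the other strand read as TTCAAA, and TTTAAA) and CCAAT matches (CCAAT, on the other strand read as ATTGG) in capitals.
Plk1, chr7:122159185-122159484, plus strand: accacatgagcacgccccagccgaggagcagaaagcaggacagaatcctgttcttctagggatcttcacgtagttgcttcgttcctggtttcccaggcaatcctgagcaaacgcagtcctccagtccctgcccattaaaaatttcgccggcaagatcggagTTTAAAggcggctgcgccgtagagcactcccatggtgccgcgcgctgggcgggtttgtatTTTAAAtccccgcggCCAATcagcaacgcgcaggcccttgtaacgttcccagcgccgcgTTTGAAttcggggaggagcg
Ttk, chr9:83834439-83834738, plus strand: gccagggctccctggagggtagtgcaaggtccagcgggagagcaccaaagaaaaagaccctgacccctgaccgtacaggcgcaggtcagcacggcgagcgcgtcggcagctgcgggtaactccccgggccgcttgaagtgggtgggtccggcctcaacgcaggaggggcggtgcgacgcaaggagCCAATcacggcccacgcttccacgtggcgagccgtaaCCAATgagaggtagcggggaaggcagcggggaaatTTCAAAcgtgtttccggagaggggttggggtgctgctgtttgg
Mki67, chr7:135716330-135716629, minus strand: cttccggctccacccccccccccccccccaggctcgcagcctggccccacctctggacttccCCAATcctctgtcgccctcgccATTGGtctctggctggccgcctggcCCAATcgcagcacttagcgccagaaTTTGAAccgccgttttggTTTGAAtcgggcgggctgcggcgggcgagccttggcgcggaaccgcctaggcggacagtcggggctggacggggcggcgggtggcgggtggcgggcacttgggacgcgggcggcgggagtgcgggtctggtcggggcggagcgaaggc
Cdca8, chr4:124936868-124937167, minus strand: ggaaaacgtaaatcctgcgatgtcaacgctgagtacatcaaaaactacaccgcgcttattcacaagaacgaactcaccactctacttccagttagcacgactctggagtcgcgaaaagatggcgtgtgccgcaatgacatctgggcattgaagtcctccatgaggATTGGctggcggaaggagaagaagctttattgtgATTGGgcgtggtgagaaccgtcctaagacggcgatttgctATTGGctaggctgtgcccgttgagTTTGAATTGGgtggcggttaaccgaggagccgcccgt
Cdk1, chr10:69352863-69353162, minus strand: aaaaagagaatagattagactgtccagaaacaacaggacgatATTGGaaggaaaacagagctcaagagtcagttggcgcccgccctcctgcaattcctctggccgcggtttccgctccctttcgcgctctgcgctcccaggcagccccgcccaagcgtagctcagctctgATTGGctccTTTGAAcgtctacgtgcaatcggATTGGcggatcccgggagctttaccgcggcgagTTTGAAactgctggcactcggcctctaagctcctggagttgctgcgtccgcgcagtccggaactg
Plk1 had 3 CHR matches and 1 CCAAT match, Ttk 1 and 2, Mki67 2 and 3, Cdca8 1 and 4, and Cdk1 2 and 3. In Cdca8 the CHR match and the last CCAAT match share letters. Both motifs stand in the window of Plk1, which differed between genotypes, and in that of Cdk1, whose difference from WT was 0.03 on the log2 scale in GasKO and in hGAS mucosa.

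All 29 genes were above the filter on low values (log2 4 on at least 3 arrays) on each of the 9 arrays, and the lowest value of any of them was 5.04, for Cdc25c. Values are log2 expression after GCRMA, and levels of different probe sets are not set against each other. Over all 11273 genes tested, the GasKO arrays lay apart from the other 6 on the first principal component (53.9% of the variance), at 25.8 to 30.1 against -19.2 to -8.38. The Gast probe set read 2.08 ± 0.08 in GasKO, 1.95 ± 0.01 in hGAS and 1.96 ± 0.02 in WT mucosa (SD, n = 3 each), at background in every group, so it checks neither the knockout nor the transgene. The mucosa expressed its epithelial markers: 16 of 16 were detected, with a mean level of 12.88 to 12.92 on GasKO, 12.85 to 12.92 on hGAS and 12.69 to 12.92 on WT arrays. Epcam, an adhesion protein of epithelial cells, was 1.27-fold higher in GasKO than in WT mucosa (adjusted p = 0.000526, limma), while Krt20 and Cdx2 did not pass the test (adjusted p = 0.902 and 0.167). The 3' minus 5' difference of the Gapdh control probe sets, a sign of RNA quality, was -0.117 to -0.089 in GasKO, -0.154 to -0.068 in hGAS and -0.176 to -0.138 in WT mucosa. All GasKO values thus lay above all WT values. For actin it was 0.872 to 0.938 in GasKO, 0.879 to 0.938 in hGAS and 0.763 to 0.888 in WT mucosa, lowest on WT replicate 2. A part of RNA quality in the differences below was not tested.

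**Figure D1:**
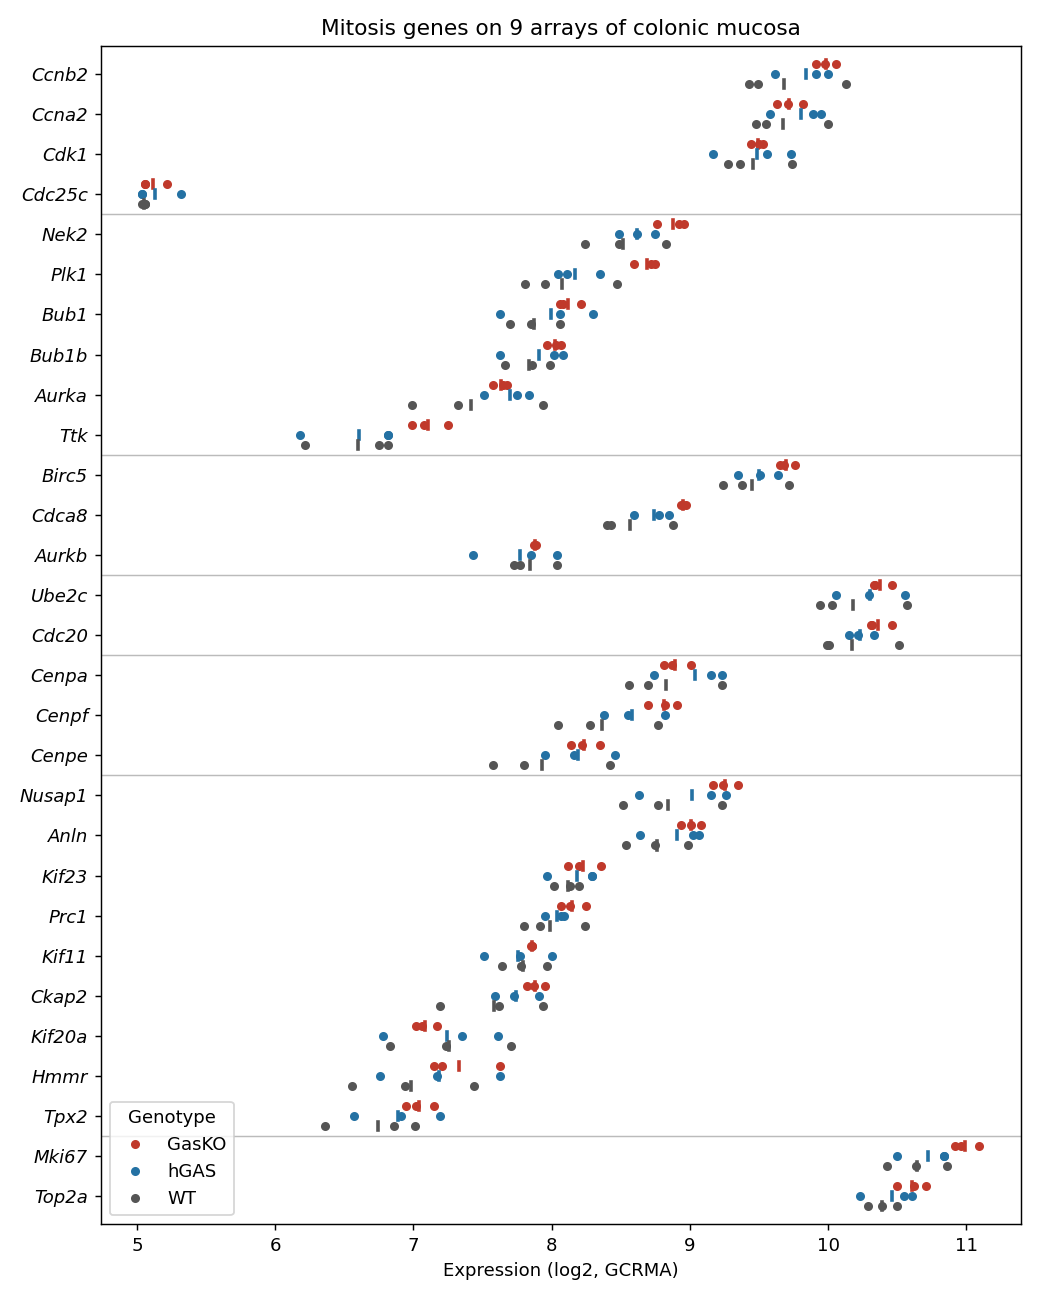
Expression of the 29 measured mitosis genes (log2, GCRMA; horizontal axis) on each of 3 GasKO, 3 hGAS and 3 WT arrays; points are arrays, short vertical bars are group means, and grey lines separate the functional classes. The 3 GasKO points of most genes lie closer together than the 3 WT points, and for Plk1 they lie above all of them (8.60 to 8.75 in GasKO and 7.81 to 8.47 in WT mucosa).

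The comparison of GasKO with WT mucosa asks what loss of the gastrin gene does to these genes. Their levels were mostly slightly higher in GasKO mucosa, and Plk1 was the 1 gene that rose. The log2 difference was above 0 for 28 of 29 genes, against 51.8% of all genes tested. The median difference was 0.25, against 0.01 over all genes, and the range was -0.18 to 0.62. By the call rule (adjusted p under 0.05 over all genes, limma), 1 of 29 rose and 0 fell, in a comparison in which 12.1% of all genes were called, 6.64% as higher and 5.48% as lower. In 5 of 29 genes (Plk1, Cdca8, Mki67, Ttk and Top2a) all GasKO values lay above all WT values, and 16.1% of all genes did the same. At an unadjusted p under 0.05 there were 6 of 29 genes, all higher in GasKO, against 14.2% of all genes. The counts of genes called and of genes without overlap stood near these background shares.

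Plk1, the polo-like kinase that drives centrosome maturation, spindle assembly and mitotic exit, read 8.72, 8.75 and 8.60 on the GasKO arrays, against 8.47, 7.81 and 7.95 on the WT arrays. The GasKO values lay close together and above every WT value, of which the first was the highest. The difference was 0.62 (SE 0.15, 95% interval 0.27 to 0.96), or 1.53-fold, with an adjusted p of 0.0288 by limma. The call rested on every array of these groups but the first WT array. Without GasKO replicates 1, 2 or 3, or WT replicates 2 or 3, the adjusted p lay between 0.0619 and 0.0942, and without WT replicate 1 it was 0.00178.

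Cdca8, which encodes borealin of the chromosomal passenger complex, read 8.94, 8.97 and 8.95 in GasKO, against 8.88, 8.40 and 8.43 in WT mucosa. Its groups did not overlap, but the highest WT value was only slightly below the GasKO values. The difference of 0.38 (SE 0.12) had an adjusted p of 0.0721. Mki67, the Ki-67 protein that coats mitotic chromosomes and is the usual proliferation marker, read 11.09, 10.92 and 10.96 in GasKO, against 10.86, 10.43 and 10.64 in WT mucosa. The groups did not overlap here either, and the difference of 0.34 (SE 0.12) had an adjusted p of 0.0993. Ttk, the spindle checkpoint kinase also known as Mps1, read 7.25, 6.99 and 7.08 in GasKO, against 6.82, 6.22 and 6.75 in WT mucosa. Every GasKO value was above every WT value, with a difference of 0.51 (SE 0.20) and an adjusted p of 0.145. None of these 3 genes passed the test.

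Nek2, a kinase of centrosome separation, read 8.96, 8.92 and 8.76 in GasKO, against 8.83, 8.49 and 8.24 in WT mucosa. The first WT value lay inside the GasKO range, and the difference was 0.36 (SE 0.13, adjusted p = 0.126). Cenpf, a kinetochore protein of G2 and M phase, read 8.82, 8.91 and 8.70 in GasKO, against 8.77, 8.05 and 8.28 in WT mucosa. Again 1 WT value reached into the GasKO range, and the difference was 0.44 (SE 0.17, adjusted p = 0.141). Top2a, the topoisomerase that untangles sister chromatids, read 10.71, 10.5 and 10.62 in GasKO, against 10.5, 10.29 and 10.39 in WT mucosa. Its groups met without overlap at 10.5, and the difference was 0.22 (SE 0.10, adjusted p = 0.211).

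Cdk1, the kinase at the centre of mitotic entry, was close to equal: 9.53, 9.50 and 9.44 in GasKO, against 9.74, 9.28 and 9.36 in WT mucosa. The GasKO values lay inside the WT range, and the difference was 0.03 (95% interval -0.31 to 0.36, adjusted p = 0.933). Its cyclin partners differed by 0.30 for Ccnb2 and 0.04 for Ccna2, and its activator Cdc25c by 0.06. None of these 4 genes passed the test, and their median difference was 0.05.

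By function, the 6 other mitotic kinases and checkpoint genes were all higher in GasKO, with 1 rising and a median of 0.30. Aurka, the Aurora kinase of centrosomes and spindle poles, read 7.68, 7.65 and 7.58 in GasKO, against 7.94, 6.99 and 7.32 in WT mucosa, so the groups overlapped fully (difference 0.22, adjusted p = 0.537). The checkpoint genes Bub1 and Bub1b differed by 0.25 and 0.18. In the chromosomal passenger complex, Birc5 (survivin) differed by 0.25 and the kinase Aurkb by 0.03, beside 0.38 for Cdca8. The partners of the anaphase promoting complex, Cdc20 and the ubiquitin-conjugating enzyme Ube2c, differed by 0.19 and 0.20. Of the centromere proteins, Cenpe, a kinesin of the kinetochore, differed by 0.30 and Cenpa, the centromeric histone H3 variant, by 0.07. None of these genes except Plk1 passed the test.

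The 9 genes of spindle motors, microtubule factors and cytokinesis had a median difference of 0.25, with 8 higher in GasKO and 0 past the test. Nusap1, which binds and bundles spindle microtubules, was the furthest up at 0.42 (SE 0.19, adjusted p = 0.209). Hmmr, a spindle-associated hyaluronan receptor, differed by 0.35, Ckap2 by 0.30, Tpx2, the activator of Aurora A, by 0.29, and Anln, the anillin scaffold of the contractile ring, by 0.25. Prc1, which crosslinks the central spindle, differed by 0.16, the cytokinesis kinesin Kif23 by 0.11, and Kif11, the motor that keeps the spindle bipolar, by 0.06. The cytokinesis kinesin Kif20a was the exception in direction, at -0.18 (SE 0.24, adjusted p = 0.691).

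**Figure D2:**
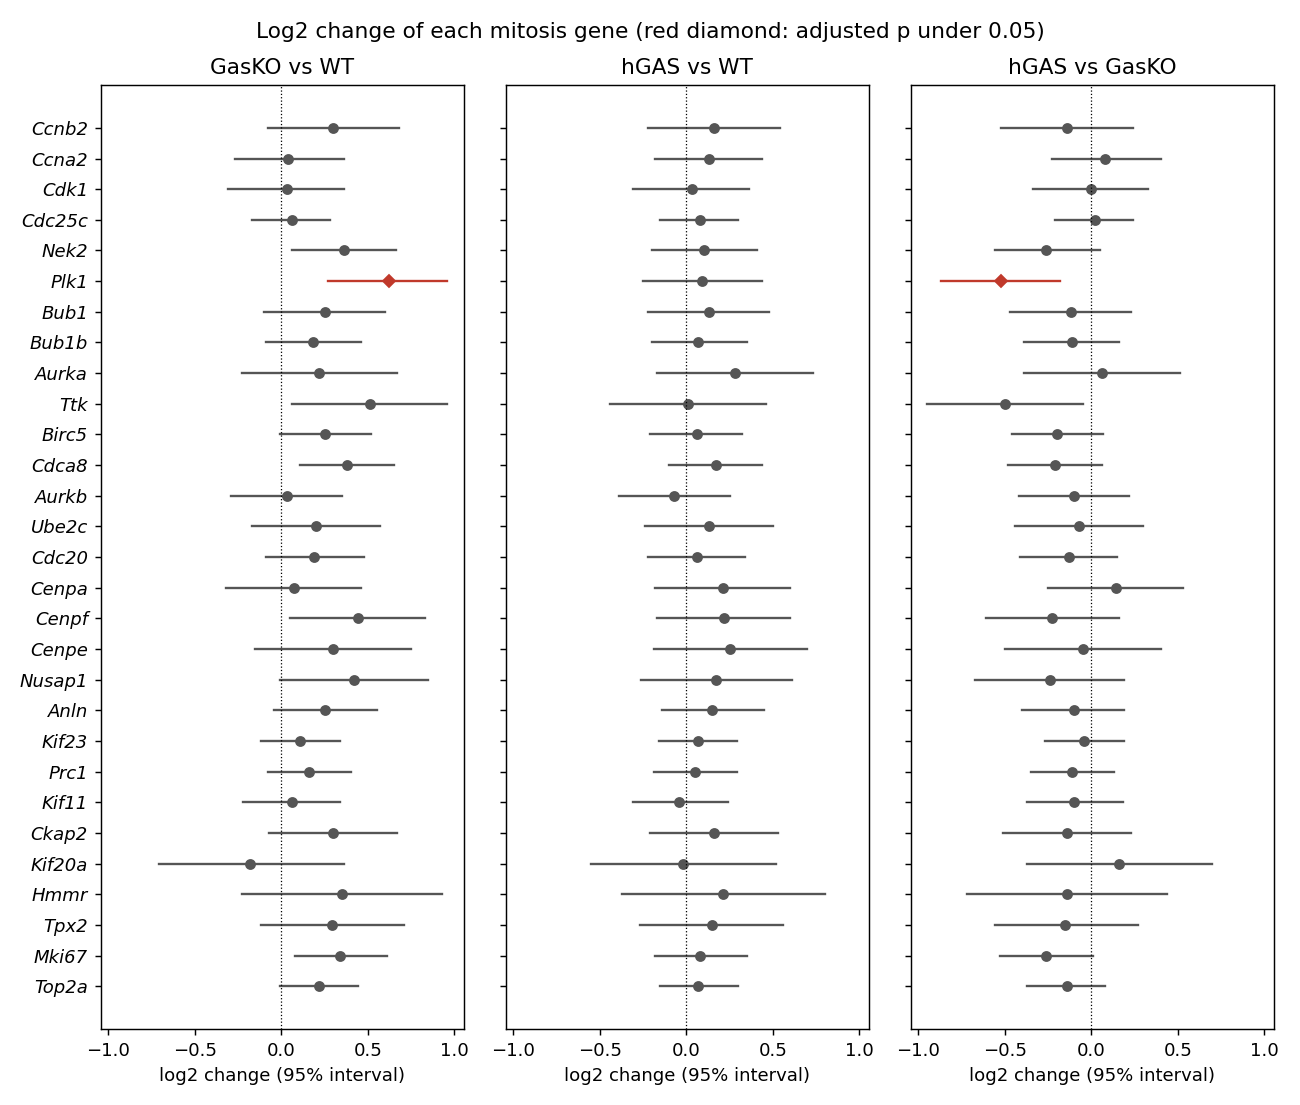
Log2 difference of each of the 29 mitosis genes (horizontal axis) in GasKO against WT, hGAS against WT and hGAS against GasKO mucosa; points are limma estimates from 3 arrays a group, lines are 95% intervals, and red diamonds mark an adjusted p under 0.05. Plk1 is the gene marked in the first panel (0.62) and in the third (-0.52), and no gene is marked in the second.

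The comparison of hGAS with WT mucosa asks what a human gastrin transgene, known to raise progastrin in these mice, does to these genes. No mitosis gene passed the test, and most lay slightly above WT. By limma's adjusted p under 0.05, 0 of 29 were called, where 1.16% of all genes were, and at an unadjusted p under 0.05 the count was also 0, where 14.2% of all genes were. The difference was above 0 for 26 of 29 genes, against 52.8% of all genes, with a median of 0.10 against 0.01 and a range of -0.07 to 0.28. In 0 of 29 genes were the groups without overlap, against 17.7% of all genes. The smallest adjusted p was 0.576.

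Aurka read 7.84, 7.51 and 7.75 in hGAS, against 7.94, 6.99 and 7.32 in WT mucosa, a difference of 0.28 (95% interval -0.17 to 0.73, adjusted p = 0.579). Cenpe read 8.46, 7.95 and 8.16 in hGAS, against 8.42, 7.58 and 7.80 in WT mucosa, a difference of 0.25 (interval -0.19 to 0.70, adjusted p = 0.632). In both genes the first WT array was as high as the hGAS arrays and the other WT arrays were lower. Cenpf read 8.82, 8.38 and 8.55 in hGAS mucosa, and Cdca8 read 8.85, 8.60 and 8.78, with differences of 0.22 and 0.17 from the WT values above. Plk1 read 8.35, 8.11 and 8.05 in hGAS mucosa, within the WT range, for a difference of 0.09 (interval -0.25 to 0.44, adjusted p = 0.84). Mki67 read 10.84, 10.5 and 10.84 in hGAS mucosa, also within the WT range, for a difference of 0.08 (interval -0.18 to 0.35). Cdk1 read 9.73, 9.17 and 9.56, Top2a 10.55, 10.23 and 10.61, and Nek2 8.75, 8.49 and 8.62, at differences of 0.03, 0.07 and 0.10. For Ttk the values were 6.82, 6.18 and 6.82, a difference of 0.01 (interval -0.44 to 0.46). The intervals of Plk1, Mki67 and Ttk hold 0 but also differences of 0.35 or more, so a modest difference in these genes would not have been detectable with these arrays.

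Without WT replicate 2, the hGAS values were above WT for 15 of 29 genes and the median difference was 0.01. Without hGAS replicate 2 the numbers were 29 of 29 and 0.23. The direction in this comparison therefore rested on single arrays.

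The comparison of hGAS with GasKO mucosa sets the transgene against the knockout, and shares its GasKO arrays with the first comparison and its hGAS arrays with the second. Plk1 fell, and the other genes mostly lay slightly lower in hGAS without passing the test. The difference was below 0 for 24 of 29 genes and above 0 for 5, against 50.4% of all genes above 0, with a median of -0.12 against 0. By limma, 0 of 29 rose and 1 fell, where 16.6% of all genes were called, 8.05% as higher and 8.51% as lower. In 6 of 29 genes (Plk1, Ttk, Mki67, Nek2, Cdca8 and Birc5) all hGAS values lay below all GasKO values, against 18.5% of all genes. Plk1 differed by -0.52 (SE 0.15, 95% interval -0.87 to -0.18, adjusted p = 0.0452), Ttk by -0.50 (SE 0.20, adjusted p = 0.124), Mki67 by -0.26 (SE 0.12, adjusted p = 0.171) and Nek2 by -0.26 (SE 0.13, adjusted p = 0.229). The Plk1 values of 8.35, 8.11 and 8.05 in hGAS lay clear of 8.72, 8.75 and 8.60 in GasKO mucosa. Cdk1 differed by 0 (95% interval -0.34 to 0.33). The genes above 0 were Kif20a (0.16), Cenpa (0.14), Ccna2 (0.08), Aurka (0.06) and Cdc25c (0.02).

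In these 2 groups, arrays with the same replicate number deviated together (correlations of 0.117, 0.201 and 0.267 over all genes). With the replicate number as a block, 3 mitosis genes fell, Plk1 (adjusted p = 0.016), Ttk (0.0174) and Mki67 (0.031), where 18.5% of all genes were called. Without the block, the Plk1 call was lost when any GasKO or hGAS array was left out (adjusted p from 0.0548 to 0.122). Without hGAS replicate 2, the direction of the group turned: 16 of 29 genes were above 0, with a median of 0.03.

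The group means stood in the order GasKO, hGAS, WT for 22 of 29 genes. In 4 genes hGAS was highest and WT lowest, in 2 GasKO was highest and hGAS lowest, and in Kif20a WT was highest and GasKO lowest. Among neighbours in these orders, the difference passed the test for Plk1 between hGAS and GasKO mucosa and for no other gene.

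Arrays of the same genotype differed widely in hGAS and WT mucosa. As the mean deviation of the 29 genes from their own means over 9 arrays (log2), the GasKO arrays were at 0.180, 0.114 and 0.062, the hGAS arrays at 0.190, -0.245 and 0.041, and the WT arrays at 0.183, -0.346 and -0.179. The first array of each group lay at about the same height, and the low arrays were hGAS replicate 2 and WT replicates 2 and 3, so the groups overlapped. Replicate 1 was the highest of its group for 21 of 29 genes in GasKO, 26 in hGAS and 28 in WT mucosa. Replicate 2 was the lowest for 27 in hGAS and 25 in WT mucosa, and replicate 3 for 17 in GasKO mucosa.

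**Figure D3:**
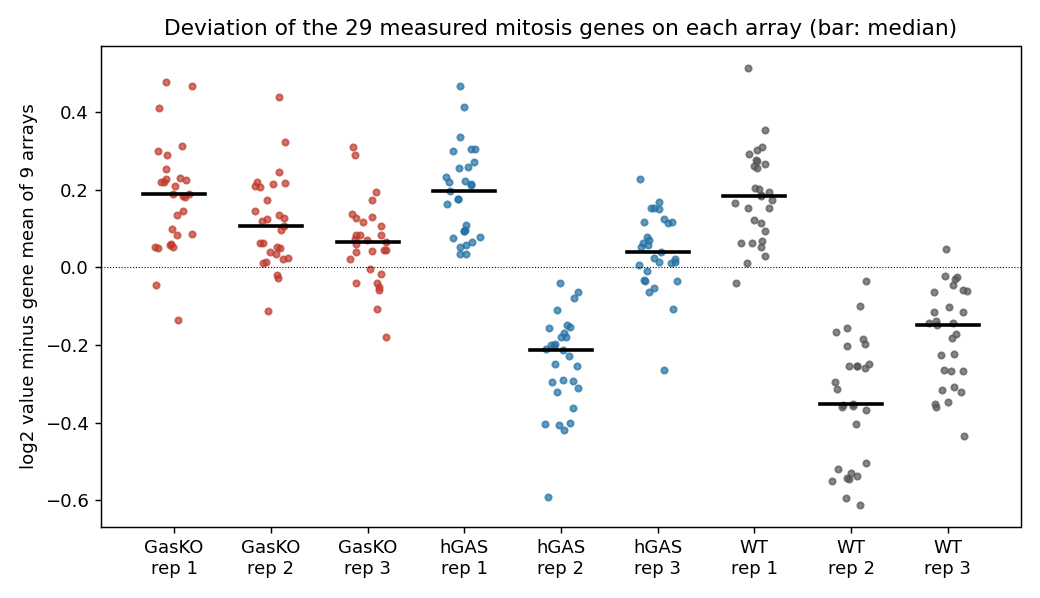
Deviation of each of the 29 mitosis genes from its own mean over the 9 arrays (log2; vertical axis) on each array; points are genes and bars are medians. The medians of the 3 GasKO arrays lie between 0.065 and 0.189, and those of hGAS replicate 2 and WT replicates 2 and 3 at -0.213, -0.352 and -0.147.

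The spread within a genotype was wide for these genes in 2 of the 3 groups. The median SD over 3 arrays was 0.0864 in GasKO, 0.223 in hGAS and 0.294 in WT mucosa, where all genes tested had 0.0804, 0.0930 and 0.0932. In hGAS and WT mucosa, 27 and 28 of the 29 SDs were above the median of all genes, against 16 in GasKO mucosa. The most variable were Hmmr in GasKO (0.264) and hGAS (0.436) and Aurka in WT mucosa (0.481). No test was made of the difference in spread.

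The genes moved as 1 block. After the group means were removed, all 406 pairs of mitosis genes were positively correlated over the 9 arrays, with a median Pearson r of 0.855 (0.0314 to 0.992). Over all pairs of genes tested the median was 0.00563, and 0.954% of pairs exceeded the median of the mitosis genes. The values of a pair come from the same RNA and the same hybridisation, so these are descriptions of 9 arrays and not independent points. Nusap1 had the highest mean correlation with the other mitosis genes (0.884), followed by Cdk1 (0.875) and Ccna2 (0.871). Cdc25c, whose values lay between 5.04 and 5.32, had the lowest (0.346), and Plk1 was at 0.753.

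**Figure D4:**
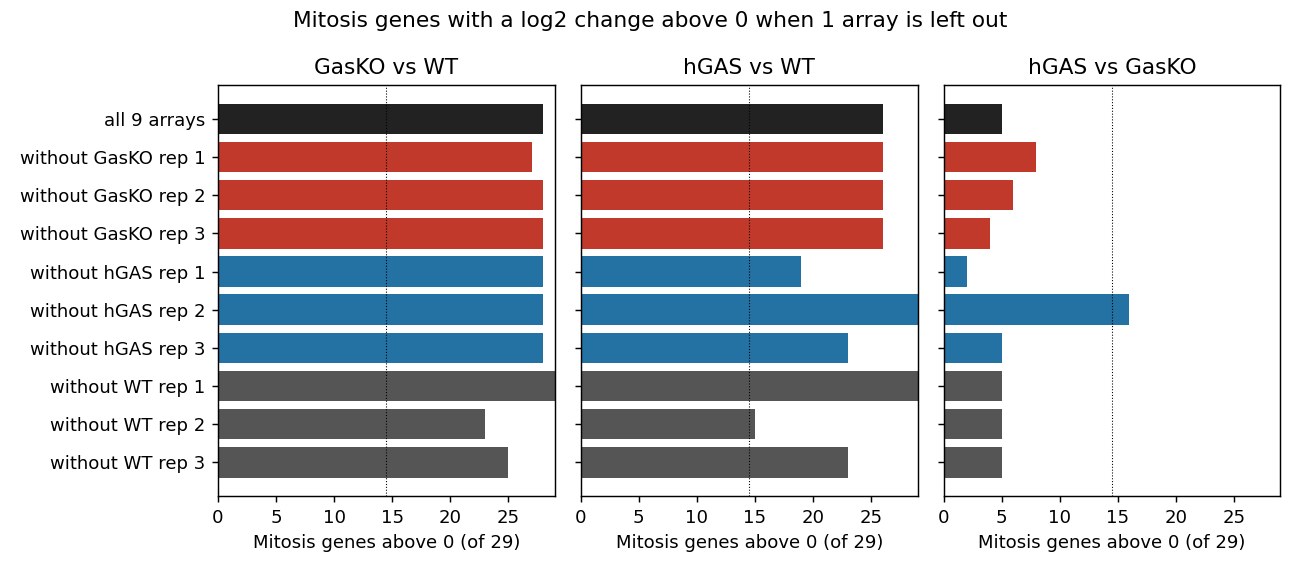
Number of the 29 mitosis genes with a log2 difference above 0 (horizontal axis) with all 9 arrays and with each array left out in turn, in GasKO against WT, hGAS against WT and hGAS against GasKO mucosa; bar colours give the genotype of the array left out, and the dotted line is the middle of the scale. In the first panel the number stays between 23 and 29, in the second it lies between 15 (without WT replicate 2) and 29, and in the third it passes the middle (16) without hGAS replicate 2.

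For GasKO against WT the direction did not hang on 1 array, although its size did. The number above 0 was 23 to 29 of 29 when any 1 array was left out. The median was 0.12 without WT replicate 2 and 0.39 without WT replicate 1. Without WT replicate 1, 9 of 29 genes rose: Aurka, Birc5, Ccnb2, Cdc20, Cdca8, Cenpf, Mki67, Nek2 and Plk1. In that setting 9.39% of all genes were called, 5.13% as higher. Without any 1 of the other WT arrays or of the GasKO arrays, 0 of 29 genes rose, where 4.15% to 6.18% of all genes did.

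Of the 29 genes, 21 had further probe sets, 36 in all, of which 21 passed the filter. In GasKO against WT, 16 of these 21 had the sign of the chosen probe set, with a median difference of 0.13. The counts were 15 of 21 in hGAS against WT and 16 of 21 in hGAS against GasKO mucosa. A second probe set of Cenpa went a different way from the chosen one. It read 2.78, 2.80 and 2.81 in GasKO, 4.79, 4.70 and 4.91 in hGAS, and 4.47, 4.22 and 5.06 in WT mucosa. All 3 GasKO values were below log2 4, so this probe set passed the filter only through the hGAS and WT arrays, and no test of its difference is given. The chosen Cenpa probe set differed by 0.07 (SE 0.17) in GasKO against WT. The second probe set was named after its values had been seen.

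The transcription regulators of the mitotic wave are the DREAM complex, B-Myb, FoxM1, NF-Y and the E2F family. Of 24 such genes listed, 20 were tested, and Mybl2 (which encodes B-Myb), E2f4 and Lin52 were not among them. In GasKO against WT, 2 of 20 tested rose and 2 fell, with a median of -0.01, where 6.64% of all genes rose and 5.48% fell. E2f2, an activating E2F, read 7.70, 7.43 and 8.06 in GasKO, against 6.49, 6.81 and 6.61 in WT mucosa, and rose by 1.09 (adjusted p = 0.0034, limma). Nfya, a subunit of the CCAAT-binding factor whose motif stands in the promoters printed above, read 7.70, 7.80 and 7.85 in GasKO, against 8.17, 8.26 and 8.32 in WT mucosa, and fell by 0.46 (adjusted p = 0.005). Both genes had GasKO values clear of every WT value. Tfdp1, the dimerisation partner of the E2Fs, fell by 0.34 (adjusted p = 0.00226), and Rbbp4, a histone-binding subunit of DREAM, rose by 0.19 (adjusted p = 0.0306). The activator Foxm1 read 5.63, 5.63 and 5.64 in GasKO, against 5.75, 5.34 and 5.66 in WT mucosa (difference 0.05, adjusted p = 0.87). In hGAS against WT, 0 of 20 were called, and in hGAS against GasKO mucosa 2 rose (Nfya by 0.47 and Tfdp1 by 0.20) and 1 fell (E2f2 by 1.18). Over all genes, 1.16% and 16.6% were called in these 2 comparisons.

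Of 22 other kinases, phosphatases and cyclin partners of mitotic entry and exit, 2 rose and 0 fell in GasKO against WT, with a median of 0.01. Over all genes, 6.64% rose and 5.48% fell. Haspin, the kinase that marks histone H3 for the chromosomal passenger complex, read 6.67, 5.91 and 6.37 in GasKO, 5.14, 4.69 and 5.33 in hGAS, and 5.03, 5.08 and 4.89 in WT mucosa. Its GasKO values were above all others, and it rose by 1.31 against WT (2.48-fold, adjusted p = 0.00279). Nek7, a kinase of spindle assembly, rose by 0.23. Haspin and Nek7 fell in hGAS against GasKO mucosa, by 1.26 and 0.27, where 8.51% of all genes fell.

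Of 50 other spindle, motor and cytokinesis genes, 2 rose and 1 fell in GasKO against WT, and their median was 0.15. The share called over all genes was 12.1%. Clasp2, which stabilises microtubule plus ends, read 8.14, 8.11 and 8.08 in GasKO, 7.08, 7.01 and 7.05 in hGAS, and 6.85, 7.10 and 7.04 in WT mucosa. It rose by 1.11 against WT (adjusted p = 1.36e-05). Kpna2, an importin that binds spindle factors such as Tpx2, read 11.54, 11.45 and 11.48 in GasKO, 12.55, 12.37 and 12.38 in hGAS, and 12.34, 12.24 and 12.15 in WT mucosa, and fell by 0.76 (adjusted p = 5.54e-05). For both genes the GasKO arrays stood alone while the hGAS and WT arrays lay close together. Tacc1, a centrosome-associated protein, rose by 0.32. In hGAS against GasKO mucosa, 1 rose (Kpna2 by 0.95) and 3 fell (Clasp2 by 1.06, Tubb5 by 0.37 and Tacc1 by 0.34), where 16.6% of all genes were called.

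Of 39 other kinetochore and checkpoint genes, 1 rose and 1 fell in GasKO against WT, with a median of 0.02. These were Mad2l1bp, which extracts Mad2 when the checkpoint is silenced (0.35), and the inner kinetochore gene Cenpc1 (-0.36). Over all genes, 12.1% were called in GasKO against WT and 16.6% in hGAS against GasKO mucosa. In hGAS against GasKO mucosa, Mis12 rose by 0.30 and Mad2l1bp fell by 0.30. The 23 condensin, cohesin and separase genes had 0 called in GasKO against WT, with a median of 0.08, and the 17 genes of the anaphase promoting complex had 0 called, with a median of -0.03. Neither list had a gene called in hGAS against GasKO mucosa. Of 18 G1 cyclins, partners and CDK inhibitors, Ccne2, a cyclin of the G1 to S transition, fell by 0.42 in GasKO against WT (adjusted p = 0.0185). In hGAS against GasKO mucosa, 2 of the 18 rose (Ccne2 by 0.47 and Cdkn1c by 0.37) and 2 fell (Cdkn2d by 0.47 and Cdkn1b by 0.26). In hGAS against WT, 0 genes were called in any of the lists of cell cycle genes, in which medians ran from -0.15 to 0.04. Over all genes, 1.16% were called there.

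**Figure D5:**
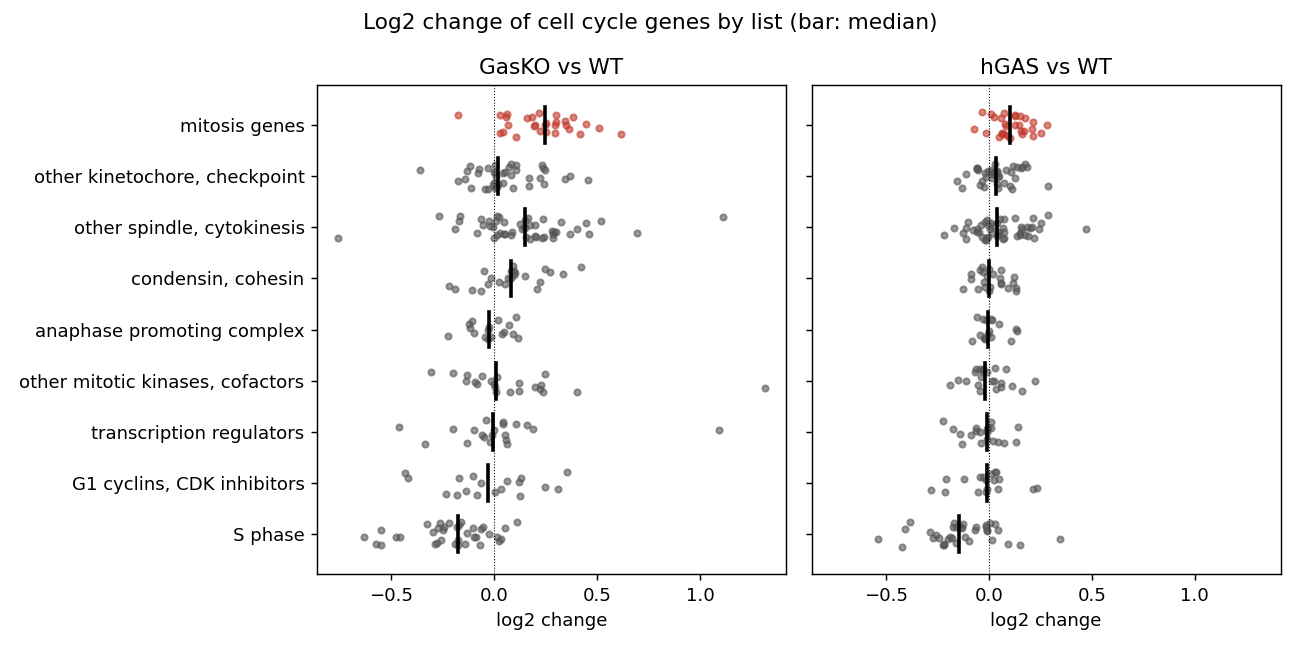
Log2 difference of each tested gene (points; horizontal axis) in 9 lists of cell cycle genes, in GasKO against WT and in hGAS against WT mucosa; black bars are medians. The medians of the mitosis genes (0.25 and 0.10) lie right of 0 and those of the S phase genes (-0.18 and -0.15) left of it.

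The S phase genes, which license and copy DNA before mitosis, ran the other way in GasKO against WT. Of 36 tested, 4 fell and 0 rose, with a median of -0.18 and 5 above 0, where 5.48% of all genes fell and 6.64% rose. The genes that fell were the helicase subunits Mcm2 (-0.63, adjusted p = 0.00147) and Mcm5 (-0.29, adjusted p = 0.0174), the polymerase subunit Pold1 (-0.46, adjusted p = 0.00661) and Uhrf1 (-0.48, adjusted p = 0.0124), which maintains DNA methylation at replication forks. Mcm2 read 7.02, 6.82 and 6.91 in GasKO, against 7.40, 7.55 and 7.69 in WT mucosa. The mean deviation of the mitosis genes minus that of the S phase genes was 0.20, 0.25 and 0.19 on the GasKO arrays, 0.15, -0.11 and 0.01 on the hGAS arrays, and 0.11, -0.42 and -0.38 on the WT arrays. The GasKO arrays were the highest on this difference, by a narrow margin (0.19 on replicate 3, against 0.15 on hGAS replicate 1). It sets a list that ran higher in GasKO mucosa against a list that ran lower. Both lists were chosen with earlier results of these data known, so the separation is a description only. No test was made of it. The S phase genes also lay mostly below WT in hGAS mucosa: 7 of 36 were above 0, the median was -0.15 and 0 were called. The lower levels were thus not particular to GasKO mucosa. In hGAS against GasKO mucosa, 4 S phase genes rose (Orc1 by 0.64, Pold1 by 0.45, Mcm2 by 0.36 and Pola2 by 0.31), where 8.05% of all genes did. Their median there was 0.05.

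Markers of other cells in the mucosa differed between the groups beside the mitosis genes, and their part in the differences above was not tested. Over all genes, 12.1% were called in GasKO against WT, 1.16% in hGAS against WT and 16.6% in hGAS against GasKO mucosa. The mean level of 9 plasma cell markers was 8.47 to 8.72 in GasKO, 7.97 to 8.32 in hGAS and 7.34 to 7.90 in WT mucosa, with Tnfrsf17 below log2 4 on every array. Of 8 tested, Mzb1, Jchain, Igha and Derl3 rose in GasKO against WT (Mzb1 by 2.56 and Jchain by 1.64). Xbp1, named after its values had been seen, fell by 0.21, and Sdc1 and Prdm1 were not called. Derl3 read 3.87, 4.10 and 3.78 in WT mucosa, near the filter, and no difference is given for it. Irf4 was below log2 4 on all hGAS and WT arrays, so it passed the filter only through the GasKO arrays. Its call is left out and no difference is given for it. The B cell markers were at 5.25 to 5.93 in GasKO, 3.60 to 4.05 in hGAS and 4.71 to 5.13 in WT mucosa. Of the 6 tested, Cr2 and Fcmr are left aside here. Ms4a1 and Cd79a rose in GasKO against WT, and Cd79b and Cd22 were not called. Cd79a and Cd79b fell in hGAS against WT, and Ms4a1 and Cd22 were not called. Ms4a1, Cd79a, Cd79b and Cd22 fell in hGAS against GasKO mucosa. Cr2 and Fcmr were below log2 4 on all 3 hGAS arrays, and Cr2 also on WT replicates 2 and 3 (3.51 and 3.67). Cr2 thus passed the filter through the GasKO arrays and WT replicate 1, and Fcmr through the GasKO and WT arrays. Neither is counted here, and no difference is given for either. The B cell genes Blk and Fcer2a were below log2 4 on every array. The germinal centre markers were at 4.63 to 4.68 in GasKO, 4.67 to 4.72 in hGAS and 4.63 to 4.77 in WT mucosa. In GasKO against WT and in hGAS against WT, 0 of 4 were called, and in hGAS against GasKO mucosa 1 rose (Rgs13 by 1.04). Gcsam and Mef2b were below log2 4 throughout, so these levels do not show how many B cells were in division. The myeloid markers were at 8.05 to 8.21 in GasKO, 7.55 to 7.95 in hGAS and 7.73 to 7.82 in WT mucosa, with 4 of 9 rising in GasKO against WT (Cd163, Lyz2, Mpeg1 and Cd14). Of these 9 markers, 6 fell in hGAS against GasKO mucosa and 0 were called in hGAS against WT. Of 9 T cell markers, 7 were below log2 4 on every array. Thy1, the 1 tested, rose by 0.76 in GasKO against WT and fell by 0.65 in hGAS against GasKO mucosa.

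Among 13 crypt stem cell markers, 2 fell in GasKO against WT, Lgr5 by 0.94 (adjusted p = 0.0321) and Rgmb by 0.49. Lgr5, a receptor of cycling stem cells at the crypt base, read 5.60, 5.78 and 5.63 in GasKO, 6.54, 6.24 and 6.89 in hGAS, and 6.98, 6.02 and 6.85 in WT mucosa. Its GasKO values were below every other array. Of the 13 markers, 6 were above 0 in GasKO against WT, and the median difference was -0.03. In hGAS against GasKO mucosa, 3 of 13 rose (Lgr5 by 0.88, Prom1 by 0.60 and Rgmb by 0.53) and 2 fell (Ephb3 by 0.55 and Axin2 by 0.52). Of 16 epithelium markers, 2 rose (Epcam and Krt18) and 1 fell (Car4) in GasKO against WT, and 1 rose (Car1) and 1 fell (Car4) in hGAS against WT. In hGAS against GasKO mucosa, 1 of the 16 rose and 3 fell. Of 8 fibroblast markers, 2 rose in GasKO against WT (Pdgfra by 0.38 and Dcn by 0.26) and 2 fell in hGAS against GasKO mucosa. None of 7 smooth muscle and 6 endothelium markers was called. Over all genes, 12.1% were called in GasKO against WT, 1.16% in hGAS against WT and 16.6% in hGAS against GasKO mucosa.

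Several calls outside the mitosis genes hung on single arrays. In GasKO against WT, Mcm5 was no longer called without GasKO replicates 2 or 3, Ccne2 without WT replicates 2 or 3 or GasKO replicate 3, Nek7 without WT replicate 3 or GasKO replicates 1 or 3, and Rbbp4 without WT replicates 1 or 2 or any GasKO array (adjusted p from 0.0525 to 0.0977). Lgr5 lost its call without any 1 of 6 arrays and Tacc1 without any 1 of 7 (adjusted p from 0.0513 to 0.124). Of the markers, Lyz2 and Mpeg1 lost theirs without GasKO replicate 1, and Ms4a1, Cd79a, Cd14, Krt18 and Dcn without any 1 of 3 or more arrays. Igha and Xbp1 were not followed there with arrays left out. E2f2, Nfya, Tfdp1, Haspin, Clasp2, Kpna2, Mad2l1bp, Cenpc1, Mcm2, Pold1 and Uhrf1 were called whichever array was left out. In hGAS against WT, Cd79a, Cd79b, Car1 and Car4 lost their calls without any 1 of 2 or more arrays. In hGAS against GasKO mucosa the same held for Mad2l1bp, Mcm2, Pola2, Tfdp1, Mis12, Tacc1, Lgr5, Rgs13, Cdkn1b, Cdkn1c and Cdkn2d. For that comparison only genes named above are listed, and Prom1, Ms4a1 and Cd22 were not followed with arrays left out.

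The 29 genes lay on 12 chromosomes by the RefSeq table, with 6 on chromosome 2 and 4 each on chromosomes 9 and 11. Top2a, Birc5, Aurkb and Hmmr share chromosome 11 with Gast. In GasKO against WT these 4 differed by 0.22, 0.25, 0.03 and 0.35, and none of them passed the test. Top2a is among the 5 genes whose GasKO and WT values did not overlap. Distances from Gast were not examined, nor were the chromosomes of genes in the other lists. A part of the targeted locus in these differences was not tested.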

How the data were processed

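Total RNA was labelled and hybridised to Affymetrix mouse arrays of 45101 probe sets, 1 array per sample. The deposited values are log2 intensities after GCRMA, per the submitters' processing notes; its version is not stated, and other settings are not given in the sources used here. Values ran from 0.881 to 15.1, and array medians from 4.13 to 4.16. The precision is limited by the 3 arrays in each of 3 groups. GEO's platform annotation paired 34945 probe sets with 1 gene, 932 with several and 9160 with none, and 64 were controls. Symbols were checked by Entrez ID against RefSeq (204 not matched, 0 changed).

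Genes with at least 3 arrays at log2 4 or more were tested (11273 of 18193) with limma 3.58.1 in R 4.3.3 (lmFit, eBayes with trend, 6 residual and 3.47 prior degrees of freedom), all 9 arrays in 1 fit, 2-sided, with Benjamini-Hochberg adjustment over all genes and calls at 0.05. No test was made of the list. The members and the 18 other gene lists (354 of 364 entries matched) were chosen with earlier results of these data known. Values on every array are given for members called, for the 4 members with the smallest p in each comparison and for Mki67, Cdk1 and Top2a; from other lists, up to 4 called genes in a comparison are named. On simulated data for GasKO against WT over 11273 genes, 90% of 50 genes changed by log2 0.5 and 96% of 50 changed by 1 were called, with 9 false calls. In the real data the median SE was 0.15 for the mitosis genes, against 0.09 over all genes tested. The simulated shares are therefore not to be read as those of the mitosis genes: Ttk, at 0.51, was not called.

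Same-numbered arrays deviated together in every pair for GasKO and hGAS (0.117, 0.201 and 0.267), a hint from the data only, so the blocked result stands beside that comparison. The same held for hGAS and WT (0.254, 0.0838 and 0.203), where the block left 0 mitosis genes called. Alternatives were other filters, normalizations, probe sets, eBayes settings, a replicate block and leaving out each array.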

Additional observations from a re-analysis of the deposited data

How the results depend on the processing

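With 3 arrays a group, single arrays set most counts. In GasKO against WT, the number of mitosis genes called was 1 in the main analysis, where 12.1% of all genes were called. With no filter on low values it was 0 (6.12% of all genes called), and with only the 6 arrays compared also 0 (10.7%). Leaving aside Cenpa, explained below, Plk1 was the gene called with the mean of all probe sets (12.1%). The same held with probe sets designed for 1 transcript (12%). The number was 3 at an adjusted p under 0.1, where 17% of all genes were called. It was 5 with the replicate block (Cdca8, Mki67, Nek2, Plk1 and Ttk, where 13.8% of all genes were called). With 1 array left out it was 0 to 9 (7.88% to 12.2% of all genes). In hGAS against GasKO, again leaving Cenpa aside, Plk1 was called with probe sets designed for 1 transcript (16.5% of all genes called). With the mean of probe sets Plk1 was not called (adjusted p = 0.0541, limma, 16.7% of all genes called). The number in this comparison was 1 in the main analysis (16.6%), 0 with no filter (7.95%) and 0 without the eBayes trend (14.8%). It was 3 with the replicate block (18.5% of all genes) and 0 to 1 with 1 array left out (10.8% to 17.7%). In hGAS against WT it was 0 under every alternative run. Over all genes, hGAS against WT had 131 calls, and 58 with no filter, 27 with only 6 arrays, 283 with the replicate block, 340 at an adjusted p under 0.1 and 26 to 104 with 1 array left out. GasKO against WT had 888 to 1375 and hGAS against GasKO 1219 to 1996 calls with 1 array left out. The pairing of replicate numbers is not borne out in every pair for GasKO and WT, with correlations of 0.15, -0.00557 and 0.145. There, WT replicate 2 correlated better with GasKO replicate 3 (0.101) than with its own number. For hGAS and WT all 3 correlations were above 0 (0.254, 0.0838 and 0.203). Still, hGAS replicate 2 correlated slightly better with WT replicate 1 (0.103) than with its own number. The median difference of the mitosis genes ranged, with 1 array left out, from 0.12 to 0.39 in GasKO against WT, 0.01 to 0.26 in hGAS against WT and -0.22 to 0.03 in hGAS against GasKO. Cenpa was also called with the mean of probe sets and with probe sets for 1 transcript, in GasKO against WT and in hGAS against GasKO. Its second probe set, below log2 4 on all GasKO arrays, enters there. That probe set passed the filter only through the hGAS and WT arrays. These Cenpa calls are therefore not counted above, and no difference is given for them. Among the 10 genes whose values by array are given, differences that changed sign were not called in any setting. With other normalizations or probe sets they were, in hGAS against WT, Ttk (-0.01 after quantile normalization) and Top2a (0 with the mean of probe sets and -0.08 with probe sets for 1 transcript), and in hGAS against GasKO, Cdk1 (0.01 after median centring). With 1 array left out they were Cdk1 in all 3 comparisons (-0.06 to 0.17 in GasKO against WT, -0.10 to 0.19 in hGAS against WT and -0.13 to 0.16 in hGAS against GasKO), in hGAS against WT Plk1 (-0.04 to 0.29), Mki67 (-0.02 to 0.20), Ttk (-0.18 to 0.23) and Nek2 (-0.04 to 0.26), and in hGAS against GasKO Cenpe (-0.18 to 0.07) and Aurka (-0.01 to 0.16). The cause of these shifts was not tested.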
